A study of Mus musculus with 9 samples.

Results

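The insulin-like growth factor (IGF) axis was followed here through 10 genes of cultured mouse ankle synovial fibroblasts (SFs): the ligands Igf1 and Igf2, the receptors Igf1r and Igf2r, and the binding proteins Igfbp2, Igfbp3, Igfbp4, Igfbp5, Igfbp6 and Igfbp7. They and the gene lists set beside them were chosen by name, with earlier results of these data known. Each member name matched 1 row among the 49548 genes measured. Igfbp1, the binding protein best known from liver, was listed at 0 in all 9 libraries and was kept with the other genes of the pathway. Expression was measured by 3′ mRNA sequencing, which reads the end of each transcript, so counts do not grow with transcript length.

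The SFs came from the ankle joints of 8-week-old mice of CBA C57BL/6J background and were grouped as wild type (WT) without treatment, hTNFtg without treatment, and hTNFtg treated with 1 µg/mL infliximab for 48 hours, with 3 libraries each. hTNFtg mice carry a human TNF transgene and develop a destructive polyarthritis, and infliximab is an antibody that neutralizes human TNF. The cells were digested out of the joint with collagenase, depleted of CD45+ cells at passage 1 and studied in culture. The methods describe vehicle where the labels give no treatment, and the number of mice behind each library was not stated, so p-values measure the spread between these libraries.

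In the IGF axis, IGF1 and IGF2 are secreted hormones that bind the receptor tyrosine kinase IGF1R, which signals for growth and survival through insulin receptor substrates, PI3-kinase and AKT. IGF2R has no kinase: it carries IGF2 to the lysosome and so clears it. The binding proteins hold the ligands in the extracellular space, where they can block or prolong their action, and proteases such as PAPP-A release the ligands by cutting them. In the joint, IGF1 is known for driving matrix synthesis by cartilage cells.

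Depth differed between the libraries. The library of hTNFtg replicate 1 held about 613267 reads, against an estimated 3828228 to 9014512 in the other 8. In it 16009 genes stood above 0, against 20384 to 22699. A gene with 3 reads had a normalized count of 18.7 in that library and of 1.60 to 3.31 elsewhere. Of the members, Igf2 had 0 reads in hTNFtg replicate 1, while the other 9 had between 13 and 1346. The 10 synovial fibroblast markers had counts in every group, although Prg4 may share reads with Tpr, which it overlaps on the opposite strand. Their summed normalized counts were 42009 to 52743 in WT, 38175 to 46051 in hTNFtg and 35893 to 41849 after infliximab. Single markers differed: Pdpn averaged 925 in WT, 4088 in hTNFtg and 2698 after infliximab, and Lum 811, 213 and 206. Of the 10, 1 was raised and 1 lowered in hTNFtg over WT, against 3.35% and 3.04% of all genes. Of 12 genes known to be induced by TNF, 9 were raised in hTNFtg over WT, against 3.35% of all genes. In treated SFs, 6 of the 12 were lowered against untreated hTNFtg (0.936% of all genes) and 8 were still raised over WT (3.86% of all genes).

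Binding protein transcripts outnumbered all others of the axis in WT SFs. Igfbp4 averaged 24463 ± 3299 normalized counts (SD, n = 3) and ranked 9 among all genes by its WT mean, and Igfbp2 averaged 4206 ± 1978 and ranked 140. The ranges of both stood apart from each other and from every other member. Igf2r followed with 522 ± 186, Igfbp7 with 416 ± 34.9, Igfbp6 with 300.3 ± 38.7, Igf1 with 232 ± 79.8, Igfbp5 with 194 ± 42.2, Igf1r with 170 ± 32, Igfbp3 with 100 ± 61.8 and Igf2 with 24.7 ± 15. In that order, the ranges of neighbours overlapped between Igf2r and Igfbp7 and from Igfbp6 down to Igfbp3, and Igf2 lay below the lowest value of every other member.

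In hTNFtg SFs, the pair of abundant binding proteins and the ligand Igf2 were lower than in WT, and the receptor Igf1r was higher. The call rule took the thresholds of the study, an unadjusted limma P under 0.05 together with a change of 1 or more on the log2 scale, up or down. By that rule 5 of the 10 members were called, 2 raised (Igf1r and Igfbp7) and 3 lowered (Igf2, Igfbp2 and Igfbp4), while 6.39% of the 28522 genes tested were called, 3.35% raised and 3.04% lowered. The 3 libraries of a group did not overlap with those of the other group for the same 5 members, against 11.4% of all genes. With Benjamini-Hochberg adjustment over all genes tested, only Igfbp2 stayed under 0.05, against 0.48% of all genes. In the count model of edgeR the adjusted p was under 0.05 for Igf2, Igfbp2 and Igfbp4, and for 3.21% of all genes. The median log2 fold change of the members was -0.20, and that of all genes was -0.00. Many members are far above the typical count: among genes with a mean of at least 10, 8.98% were called and 18.6% did not overlap. The row of Igfbp7 cannot be told apart from that of a neighbouring gene, as described with that member, and without it 4 of 9 members were called.

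**Figure D1:**
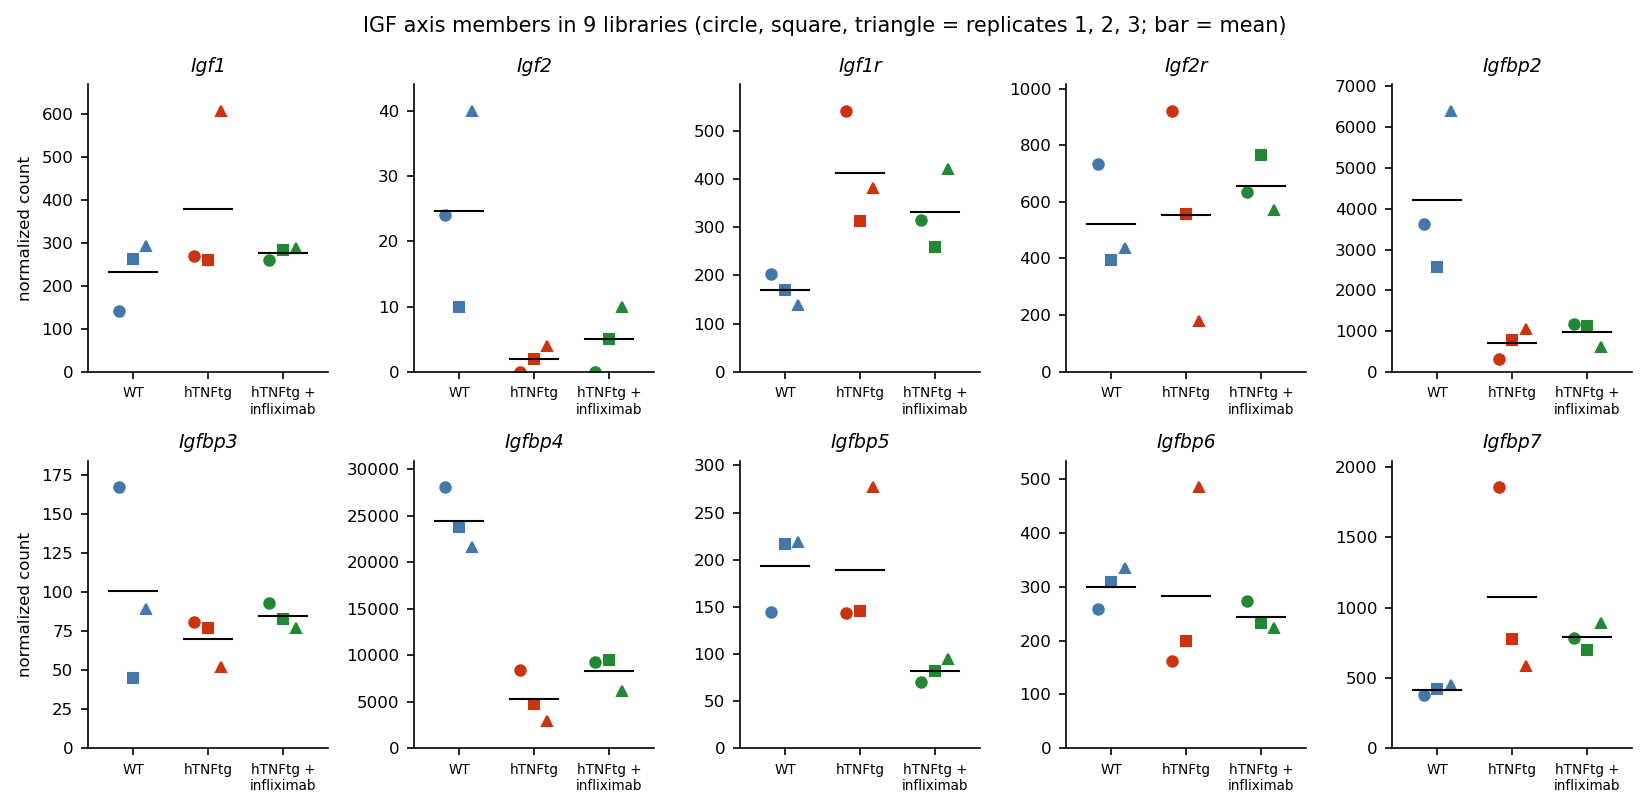
Normalized counts (vertical axis, linear, from 0, with a scale of its own in each panel) of the 10 members in the 9 libraries, by group; circle, square and triangle are replicates 1, 2 and 3, and the bar is the mean of 3. Igfbp2 and Igfbp4 in all 6 hTNFtg libraries, treated or not, lay below all 3 WT libraries, Igf1r in all 6 lay above them, and Igfbp5 was lowest in the 3 infliximab-treated libraries.

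Of the ligands, Igf1 did not pass the test in any comparison. It had normalized counts of 142, 262 and 293 in WT, of 268, 259 and 607 in hTNFtg, and of 261, 283 and 287 after infliximab. All groups overlapped, and the highest value was that of hTNFtg replicate 3. For hTNFtg over WT the log2 fold change was 0.65 ± 0.40 (SE, limma), with a 95% confidence interval from -0.24 to 1.53 and an adjusted p of 0.726. Without hTNFtg replicate 3 it was 0.25.

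Igf2, a fetal growth factor expressed from the paternal allele, was the scarcest member in every group. WT libraries had normalized counts of 24, 10 and 40, hTNFtg libraries 0, 2 and 4, and infliximab-treated libraries 0, 5 and 10. Each hTNFtg library was below each WT library, whereas the highest treated library equalled the lowest WT library. The log2 fold change of hTNFtg over WT was -3.18 ± 0.91 (limma adjusted p = 0.222), and edgeR gave an adjusted p of 0.00183. With a pseudocount of 5 in place of 1 it was -1.99. The value of 0 in hTNFtg replicate 1 allows up to 18.7 normalized counts, which reaches into the WT range. Without that library the difference was still called, at -2.53. Infliximab-treated SFs were also lower than WT in Igf2, by a log2 fold change of -2.47 ± 0.89 (limma adjusted p = 0.290). That call was lost in 4 of the 6 fits that left out a single library, with log2 fold changes of -2.39 without WT replicate 1, -2.04 without WT replicate 3, -1.46 without infliximab replicate 1 and -2.76 without infliximab replicate 2. Normalized counts of the antisense gene Igf2os, which overlaps Igf2 on the opposite strand, were at most 3.

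Igf1r, the signalling receptor, was higher in hTNFtg. Its normalized counts were 203, 169 and 139 in WT, 542, 312 and 382 in hTNFtg, and 316, 260 and 421 after infliximab. Every hTNFtg library, treated or not, was above every WT library. The hTNFtg mean was 2.42 times the WT mean, and the log2 fold change was 1.25 ± 0.31 (limma adjusted p = 0.148; edgeR adjusted p = 0.0660). The value in hTNFtg replicate 1, the highest, rested on 87 reads, and without that library the log2 fold change was 1.03. In treated SFs the log2 fold change over WT was 0.95 ± 0.23, short of the fold threshold (limma adjusted p = 0.114; edgeR adjusted p = 0.00276). Treated and untreated hTNFtg SFs overlapped, with a log2 fold change of -0.30 ± 0.31 and a 95% confidence interval from -0.96 to 0.37.

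The 250 bases before the RefSeq start of Igf1r (GRCm38.p6, chr7:67952007-67952256, plus strand) are shown because this receptor rose. Capitals mark the letters GGGCGG, the GC box bound by SP1, at -43 and -26 from the start. The letters GGGCGG were present, on either strand, in 32.7% of 32851 RefSeq mouse promoter windows of this length.
Igf1r promoter: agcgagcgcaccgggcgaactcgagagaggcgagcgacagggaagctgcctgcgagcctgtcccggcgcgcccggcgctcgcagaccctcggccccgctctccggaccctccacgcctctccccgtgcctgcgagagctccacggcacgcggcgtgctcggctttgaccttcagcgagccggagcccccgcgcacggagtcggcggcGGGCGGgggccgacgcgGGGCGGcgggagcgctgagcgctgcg

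Igf2r, the clearance receptor, did not pass the test in any comparison. It had 735, 393 and 438 normalized counts in WT, 922, 558 and 181 in hTNFtg, and 635, 765 and 572 after infliximab. The hTNFtg libraries spanned the whole range of the other groups, and their order followed neither group. The log2 fold change of hTNFtg over WT was -0.15 ± 0.52 (95% confidence interval from -1.28 to 0.99), and it was 0.51 without hTNFtg replicate 3. Airn, the long noncoding RNA that runs antisense to Igf2r, had 6 to 34 normalized counts. The ratio of Igf1r to Igf2r counts was 0.28 to 0.43 in WT, 0.56 to 2.11 in hTNFtg and 0.34 to 0.74 after infliximab.

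Igfbp4, a binding protein that mostly restrains IGF action and is the main substrate of PAPP-A, showed the widest gap in counts. It lies on chromosome 11 (GRCm38, chr11:99041244-99054392, plus strand). WT libraries had 28065, 23735 and 21589 normalized counts, hTNFtg libraries 8383, 4757 and 2908, and infliximab-treated libraries 9299, 9534 and 6109. All 6 hTNFtg libraries, treated or not, stood below all 3 WT libraries. The WT mean was 4.57 times the hTNFtg mean, with a log2 fold change of -2.32 ± 0.58 (limma adjusted p = 0.151; edgeR adjusted p = 0.000133). Over the alternatives of processing the adjusted p ranged from 5.86e-05 to 0.648, and the log2 fold change stayed between -2.71 and -1.95. Treated SFs were also lower than WT, by a log2 fold change of -1.58 ± 0.29 (limma adjusted p = 0.0454). Between treated and untreated hTNFtg SFs the log2 fold change was 0.74 ± 0.51 with a 95% confidence interval from -0.37 to 1.85, and the libraries overlapped. Without hTNFtg replicate 1, which had the highest untreated value, it was 1.13 and past the call rule (limma adjusted p = 0.519). Without hTNFtg replicate 3, which had the lowest, it was 0.37 and not called.

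Igfbp2, a binding protein that holds IGF2 more tightly than IGF1, was the member with the smallest adjusted p in hTNFtg over WT. It lies on chromosome 1 (GRCm38, chr1:72824503-72852474, plus strand), and its 3′ end faces that of Igfbp5, 5457 bases away on the opposite strand. WT libraries had 3637, 2575 and 6407 normalized counts, hTNFtg libraries 311, 781 and 1057, and infliximab-treated libraries 1185, 1124 and 618. The highest of the 6 hTNFtg libraries was below the lowest WT library. The WT mean was 5.87 times the hTNFtg mean, and the log2 fold change was -2.62 ± 0.50 (limma adjusted p = 0.0492; edgeR adjusted p = 1.12e-06). The adjusted p under limma did not stay under 0.05 when any single library was left out (0.0818 to 0.511). In treated SFs the log2 fold change over WT was -2.06 ± 0.36 (limma adjusted p = 0.0385). Over untreated hTNFtg it was 0.56 ± 0.43, with overlapping libraries and a 95% confidence interval from -0.37 to 1.49. That value was 0.045 without hTNFtg replicate 1 and 0.93 without hTNFtg replicate 3, and neither passed the call rule.

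The sequences before the RefSeq starts of Igfbp4 (GRCm38.p6, chr11:99040994-99041243, plus strand) and Igfbp2 (chr1:72824230-72824479, plus strand, the first of its RefSeq starts) are shown because both members were lower in hTNFtg than in WT. Among the 3 hTNFtg libraries the 2 ran in opposite order, with a ratio of Igfbp4 to Igfbp2 of 27.0, 6.09 and 2.75 in replicates 1, 2 and 3, against 3.37 to 9.22 in WT. Capitals mark the letters TATAAA in Igfbp4, at -28 from the start, and GGGCGG in Igfbp2, at -113, -98 and -37. TATAAA was present on either strand in 12.4% of all windows of this length and was not among the letters of the Igfbp2 window, nor GGGCGG among those of the Igfbp4 window.
Igfbp4 promoter: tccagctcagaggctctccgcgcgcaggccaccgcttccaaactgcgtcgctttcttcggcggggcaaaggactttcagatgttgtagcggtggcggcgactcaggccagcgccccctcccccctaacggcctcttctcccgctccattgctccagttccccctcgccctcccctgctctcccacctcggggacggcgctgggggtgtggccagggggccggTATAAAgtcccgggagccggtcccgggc
Igfbp2 promoter: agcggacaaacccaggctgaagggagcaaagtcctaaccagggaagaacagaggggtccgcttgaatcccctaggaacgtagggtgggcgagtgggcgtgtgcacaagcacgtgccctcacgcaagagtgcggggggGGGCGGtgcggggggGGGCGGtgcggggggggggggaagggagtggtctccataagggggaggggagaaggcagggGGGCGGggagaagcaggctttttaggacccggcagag

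Summed over the 6 binding proteins, WT libraries held 32650, 27303 and 29085 normalized counts, hTNFtg libraries 10936, 6737 and 5366, and infliximab-treated libraries 11707, 11753 and 8015. The sums of both hTNFtg groups were below every WT sum, and 2 of the 3 treated libraries were above every untreated hTNFtg library. Without Igfbp7 the group means were 29264 in WT, 6606 in hTNFtg and 9699 after infliximab. Igfbp4 made up 82.4 ± 7.07% of the 6 in WT, 67.2 ± 11.6% in hTNFtg and 78.9 ± 2.49% after infliximab. With the Igfbp7 row left out of the sum, these shares were 83.5 ± 7.10%, 77.7 ± 15.8% and 85.7 ± 0.544%, so the order of WT and treated SFs turned. Igfbp4 was the most abundant member in each of the 9 libraries with either sum.

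**Figure D2:**
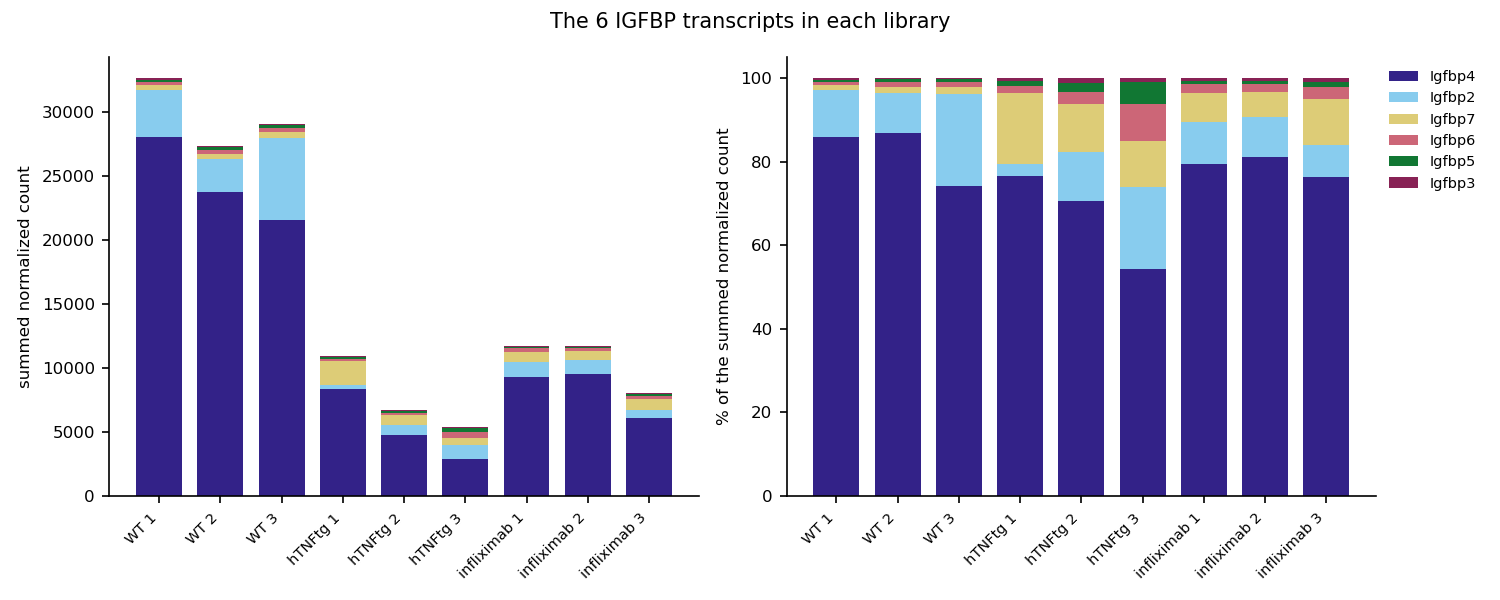
Summed normalized counts of the 6 binding proteins in each library (left, bars from 0) and the share of each in that sum (right, percent); colours are the 6 genes. The WT bars stand between 27303 and 32650 and the 6 hTNFtg bars at or below 11753, with Igfbp4 the largest share in every bar.

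The summed markers of macrophages, chondrocytes and osteoblasts also differed between WT and both hTNFtg groups. Those of endothelial cells were at most 12 in any library. Those of skeletal muscle overlapped between all groups, at 12 to 46 in WT, 24 to 58 in hTNFtg and 8 to 46 after infliximab. The summed count of 10 macrophage markers was 196 to 706 in WT, 3199 to 6725 in hTNFtg and 2073 to 4282 after infliximab, and 8 of the 10 were raised over WT both in untreated SFs, against 3.35% of all genes, and in treated SFs, against 3.86%. Ptprc, which encodes the CD45 used for depletion, was at 0, 3 and 0 in WT, at 31, 9 and 12 in hTNFtg and at 28, 8 and 22 after infliximab, higher in all 6 hTNFtg libraries than in any WT library. Reads of another of the 10, Csf1r, cannot be told apart from those of the overlapping Hmgxb3. The sum of 6 chondrocyte markers was 6215 to 9345 in WT, 548 to 1209 in hTNFtg and 903 to 2517 after infliximab. Most of it came from Comp and Sox9. Of the cartilage-defining genes, Acan was at most 16, Col9a1 at most 19 and Matn1 at most 2. Col2a1 overlapped between all groups, at 60, 51 and 94 in WT, 75, 88 and 37 in hTNFtg, and 55, 133 and 49 after infliximab. Alpl and other osteoblast markers summed to 680 to 1245, 93 to 156 and 165 to 302 in the same order. Of 5 adipocyte markers, nearly all of the sum came from Fabp4, and it was 366 to 445 in WT, 67 to 442 in hTNFtg and 123 to 218 after infliximab. The library of infliximab replicate 3 stood apart in hepatocyte markers, among them Alb and Apoa1, with a sum of 785 against 18 to 61 in the other 8 libraries. Without that library the log2 fold change of treated SFs over WT was -1.76 for Igfbp2 and -1.37 for Igfbp4, both still called but with limma adjusted p of 0.271 and 0.246, and that of Igfbp5 over untreated hTNFtg was -1.23. In bulk RNA, fewer cells of a type and less RNA per cell cannot be told apart, and the part of these cells in the levels of Igfbp2, Igfbp4 and the other members was not tested.

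Igfbp5, a binding protein that attaches to extracellular matrix and bone mineral, was the single member called between treated and untreated hTNFtg SFs, where 2.43% of 28540 genes were called, 0.936% lowered and 1.49% raised. Its normalized counts were 145, 217 and 219 in WT, 143, 146 and 277 in hTNFtg, and 70, 82 and 95 after infliximab. WT and hTNFtg overlapped, with a log2 fold change of -0.08 ± 0.35 (95% confidence interval from -0.84 to 0.68), whereas every treated library was below every library of the other groups. The non-overlap with untreated hTNFtg was shared by no other member and by 7.44% of all genes. Among genes with a mean of at least 10, 2.76% were called and 12.3% did not overlap. Treated over untreated, the log2 fold change was -1.13 ± 0.34 (limma adjusted p = 0.803; edgeR adjusted p = 0.127), and without hTNFtg replicate 3, the highest untreated library, it was -0.81 and no longer past the fold threshold. Treated over WT, it was -1.21 ± 0.23 (limma adjusted p = 0.0561; edgeR adjusted p = 0.000317). The value in hTNFtg replicate 1 rested on 23 reads.

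The window before the RefSeq start of Igfbp5 (GRCm38.p6, chr1:72874866-72875115, minus strand) is shown because Igfbp5 was the member that differed between treated and untreated cells. Capitals mark a match to the κB consensus, the letters bound by NF-κB, at -196 and read on the strand opposite to the gene. Such a match was present on either strand in 3.9% of all windows and in no window of another member.
Igfbp5 promoter: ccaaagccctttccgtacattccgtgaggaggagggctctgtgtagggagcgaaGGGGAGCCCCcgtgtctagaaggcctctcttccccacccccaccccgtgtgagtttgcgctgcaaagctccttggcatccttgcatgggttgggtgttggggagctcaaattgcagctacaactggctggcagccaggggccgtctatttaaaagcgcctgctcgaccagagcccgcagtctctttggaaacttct

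Igfbp3, the main carrier of IGFs in blood, did not pass the test in any comparison. It had 167, 45 and 89 normalized counts in WT, 81, 77 and 52 in hTNFtg, and 93, 83 and 77 after infliximab. The WT libraries were the most spread and enclosed all other values. For hTNFtg over WT the log2 fold change was -0.35 ± 0.46, with a 95% confidence interval from -1.36 to 0.67.

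Igfbp6, which prefers IGF2 over IGF1, likewise overlapped in all comparisons, with 258, 309 and 334 normalized counts in WT, 162, 199 and 485 in hTNFtg, and 273, 232 and 224 after infliximab. The hTNFtg libraries held both the lowest and the highest value. Differences on the log2 scale were -0.25 ± 0.40 for hTNFtg over WT and -0.05 ± 0.38 for treated over untreated hTNFtg, with a 95% confidence interval of the latter from -0.86 to 0.76.

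Igfbp7, a secreted relative that binds IGFs only weakly, could not be measured on its own. Its last 85 bases overlap the end of Polr2b, which encodes a subunit of RNA polymerase II and lies on the opposite strand of chromosome 5. Igfbp7 had 378, 422 and 447 normalized counts in WT, 1856, 777 and 587 in hTNFtg, and 787, 698 and 892 after infliximab. Polr2b had 379, 421 and 447, then 1837, 771 and 581, then 787, 697 and 890 in the same libraries. The largest difference in any library was about 11 reads, and whether counting used the strand was not stated, so reads from these 2 genes cannot be told apart. Tsc2 and Pkd1, another pair that meets end to end on opposite strands, had equal values in all 9 libraries.

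For the shared reads of Igfbp7 and Polr2b, the log2 fold change of hTNFtg over WT was 1.19 ± 0.40 (limma adjusted p = 0.372; edgeR adjusted p = 0.0509). Every hTNFtg library was above every WT library, and the highest value was that of hTNFtg replicate 1. Without hTNFtg replicate 1 the log2 fold change was 0.70, short of the fold threshold. The call was also lost without WT replicate 1 and without WT replicate 2 (limma adjusted p = 0.788 and 0.831). There the log2 fold change stayed at 1.12 and 1.20 and only the unadjusted P no longer met its threshold. A replicate block lost the call as well, with the log2 fold change kept at 1.19 (limma adjusted p = 0.615). Treated SFs were 0.93 ± 0.17 above WT (limma adjusted p = 0.0514), also short of the threshold.

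**Figure D3:**
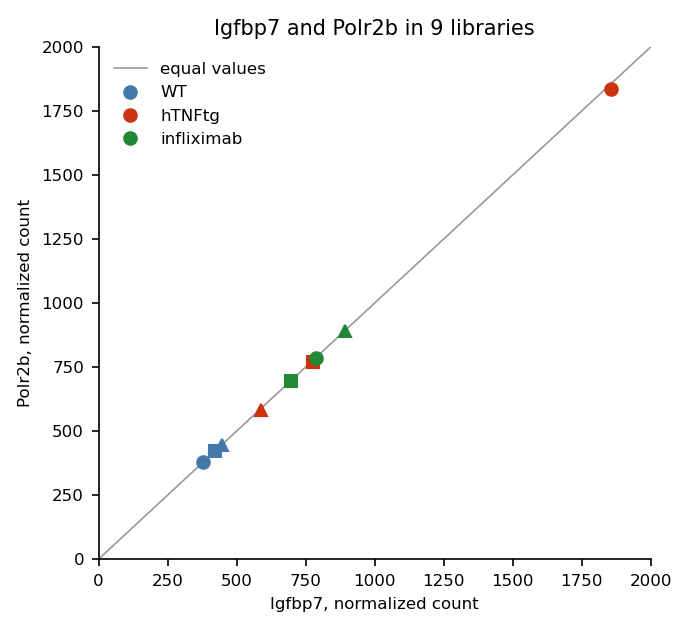
Normalized count of Polr2b (vertical axis) against that of Igfbp7 (horizontal axis) in the 9 libraries; colours are groups, shapes are replicates and the grey line marks equal values. All 9 points lie on or beside the line, from 378 and 379 in WT replicate 1 to 1856 and 1837 in hTNFtg replicate 1.

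Between treated and untreated hTNFtg SFs, the 9 members other than Igfbp5 did not pass the call rule and their libraries overlapped, with log2 fold changes from -0.33 to 0.74. No gene of the 28540 tested had a limma adjusted p under 0.05. An unadjusted P under 0.05 was found for 1026 genes, 3.59% of those tested and so a smaller share than the 5% that this threshold itself allows, and edgeR gave 165 genes (0.578%) an adjusted p under 0.05, none of them a member. Both comparisons that involve untreated hTNFtg share its 3 libraries. The median log2 fold change of the members was 0.12, against -0.00 over all genes.

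Set against WT, treated SFs had 4 members called, all lower (Igf2, Igfbp2, Igfbp4 and Igfbp5), where 2.95% of 28243 genes were lower by the same rule, 3.86% were higher and 6.81% were called in all. Among genes with a mean of at least 10, 7.67% were called and 23.3% did not overlap. By limma, Igfbp2 and Igfbp4 had an adjusted p under 0.05, as did 0.74% of all genes, and by edgeR 6 members did, as did 4.69% of all genes. The groups did not overlap for 5 members, Igf1r, Igfbp2, Igfbp4, Igfbp5 and the shared reads of Igfbp7, against 14.2% of all genes. Whether the difference from WT was smaller in treated than in untreated SFs is the comparison of those 2 groups, which called Igfbp5 alone.

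**Figure D4:**
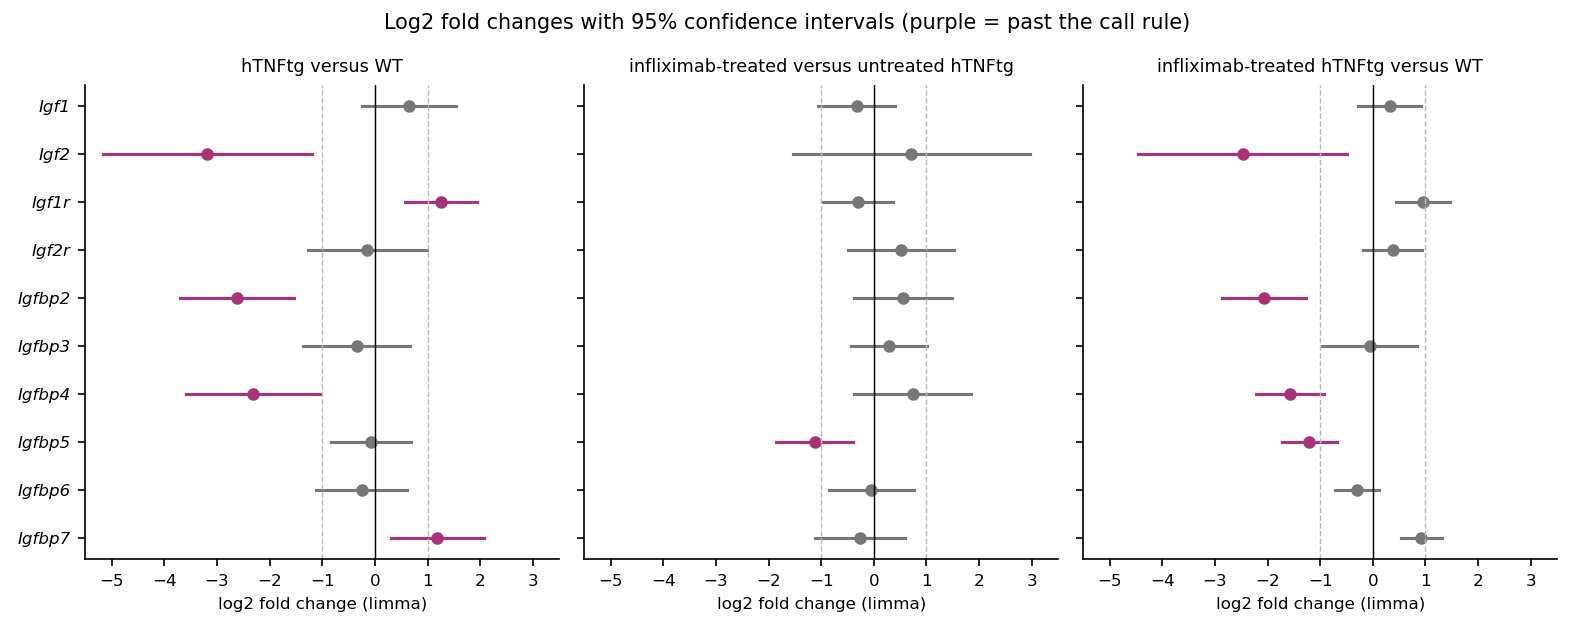
Log2 fold changes of the 10 members from limma (horizontal axis) in the 3 comparisons, with 95% confidence intervals as lines; purple marks members past the call rule, and dashed lines mark a log2 fold change of 1 in either direction. In hTNFtg over WT, Igf2, Igfbp2 and Igfbp4 lie at -3.18, -2.62 and -2.32 and Igf1r at 1.25; in treated over untreated hTNFtg, all intervals but that of Igfbp5 include 0.

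Of 38 genes of IGF signalling and its regulation, 37 were tested and 4 were called in hTNFtg over WT, 2 in each direction. That is 10.8% of the list, near the 6.39% of all genes and the 8.98% of genes with a mean of at least 10, and the median log2 fold change of the list was -0.18 against -0.00 over all genes. Irs1, an adaptor that carries the IGF1R signal to PI3-kinase, had 579, 226 and 313 normalized counts in WT, 125, 107 and 48 in hTNFtg, and 212, 252 and 168 after infliximab. Its hTNFtg libraries lay below all libraries of the other groups. Over WT the log2 fold change was -1.98 ± 0.44 (limma adjusted p = 0.0912, edgeR adjusted p = 2.95e-05). That of treated over untreated SFs was 1.26 ± 0.37 (limma adjusted p = 0.803, edgeR adjusted p = 0.0665).

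H19, the imprinted noncoding neighbour of Igf2 expressed from the maternal allele, had 215, 124 and 126 normalized counts in WT, 87, 51 and 25 in hTNFtg, and 97, 197 and 139 after infliximab. The untreated hTNFtg libraries were again below all others. Over WT the log2 fold change was -1.62 ± 0.46 (limma adjusted p = 0.218, edgeR adjusted p = 0.00279). That of treated over untreated SFs was 1.5 ± 0.44 (limma adjusted p = 0.803, edgeR adjusted p = 0.00833). Grb14, an adaptor that inhibits insulin receptor signalling, and Pik3cb, a catalytic subunit of PI3-kinase, were raised over WT in untreated SFs, by 1.28 and 1.26 on the log2 scale, and in treated SFs, by 1.06 and 1.07. Their limma adjusted p was 0.494 and 0.388 in untreated and 0.205 and 0.250 in treated SFs. By edgeR the adjusted p was 0.0215 and 0.170 in untreated and 0.00153 and 0.0609 in treated SFs. The libraries of Grb14 overlapped in both. Akt2, a kinase below PI3-kinase with the highest mean of this list, was raised in treated over untreated SFs by 1.01 ± 0.35 (limma adjusted p = 0.803, edgeR adjusted p = 0.418).

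Of 18 IGFBP proteases and their inhibitors, 3 were raised and 3 lowered in hTNFtg over WT, 33.3% of the list against 6.39% of all genes (3.35% raised and 3.04% lowered) and 8.98% of genes with a mean of at least 10. The median log2 fold change of the list was 0.17, against -0.00 over all genes. Pappa, which encodes the PAPP-A protease that cuts IGFBP4, had 164, 100 and 107 normalized counts in WT, 50, 62 and 62 in hTNFtg, and 67, 83 and 111 after infliximab. Its hTNFtg libraries did not reach the WT range, and the log2 fold change was -1.05 ± 0.34 (limma adjusted p = 0.312, edgeR adjusted p = 0.158). Pappa2, whose protease cuts IGFBP3 and IGFBP5, had 104, 88 and 80 counts in WT, 44, 18 and 2 in hTNFtg, and 45, 27 and 4 after infliximab. Its log2 fold change for hTNFtg over WT was -2.74 ± 0.80 (limma adjusted p = 0.240, edgeR adjusted p = 2.52e-05). Htra3, a secreted serine protease, was lower than WT by -2.12 ± 0.48 in untreated and by -1.72 ± 0.29 in treated SFs (limma adjusted p = 0.0981 and 0.0360, edgeR adjusted p = 0.000327 and 4.28e-08).

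The raised proteases were of other families. Mmp3, stromelysin-1, which degrades cartilage matrix and also cuts IGFBPs, had 90, 140 and 141 normalized counts in WT, 3170, 4055 and 4079 in hTNFtg, and 865, 642 and 1004 after infliximab. The 3 groups did not overlap, with log2 fold changes of 4.94 ± 0.31 for hTNFtg over WT (limma adjusted p = 3.82e-05) and of -2.18 ± 0.33 for treated over untreated SFs (limma adjusted p = 0.165; edgeR adjusted p = 3.81e-05). Adamts1, a protease of the matrix, rose by 1.72 ± 0.33 on the log2 scale in hTNFtg over WT (limma adjusted p = 0.0558, edgeR adjusted p = 0.00229). Mmp9, a gelatinase, was called with overlapping libraries, at 5, 554 and 15 counts in WT and 143, 696 and 4533 in hTNFtg. After infliximab, Stc2, whose protein blocks PAPP-A, was raised by 1.11 ± 0.50 over untreated SFs (limma adjusted p = 0.803, edgeR adjusted p = 0.764). In treated SFs over WT, 6 of the 18 were called, 4 higher (Mmp9, Mmp3, C1s1 and Adamts1) and 2 lower (Pappa2 and Htra3), where 6.81% of all genes and 7.67% of those with a mean of at least 10 were called. Ctsd, a lysosomal protease with the highest mean of the list, was not called in any comparison.

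Of 10 genes that share the IGFBP domain, 1 was called in hTNFtg over WT, a share of 10% near the 6.39% of all genes and the 8.98% of genes with a mean of at least 10. The median log2 fold change of the list was -0.27, against -0.00 over all genes. Nov, also named Ccn3, a matricellular protein, had 289, 323 and 775 normalized counts in WT, 37, 44 and 80 in hTNFtg, and 89, 98 and 51 after infliximab. Like Igfbp2 and Igfbp4, it was lower in each of the 6 hTNFtg libraries than in each WT library, with log2 fold changes of -3.01 ± 0.43 in untreated and -2.43 ± 0.38 in treated SFs (limma adjusted p = 0.0137 and 0.0286). In treated SFs over WT, 4 of the 10 were called, 2 higher and 2 lower, Nov among them. That share was 40%, against 6.81% of all genes. Among genes with a mean of at least 10, 2 of 7 on the list were called, against 7.67% of all such genes. Ctgf, the relative with the highest mean, was higher in treated SFs than in WT by 1.83 ± 0.34 (limma adjusted p = 0.0487). Igfbpl1, higher, and Esm1, lower, were also called, with group means of at most 14.3. Between treated and untreated SFs 0 of the 10 were called, where 2.43% of all genes were.

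**Figure D5:**
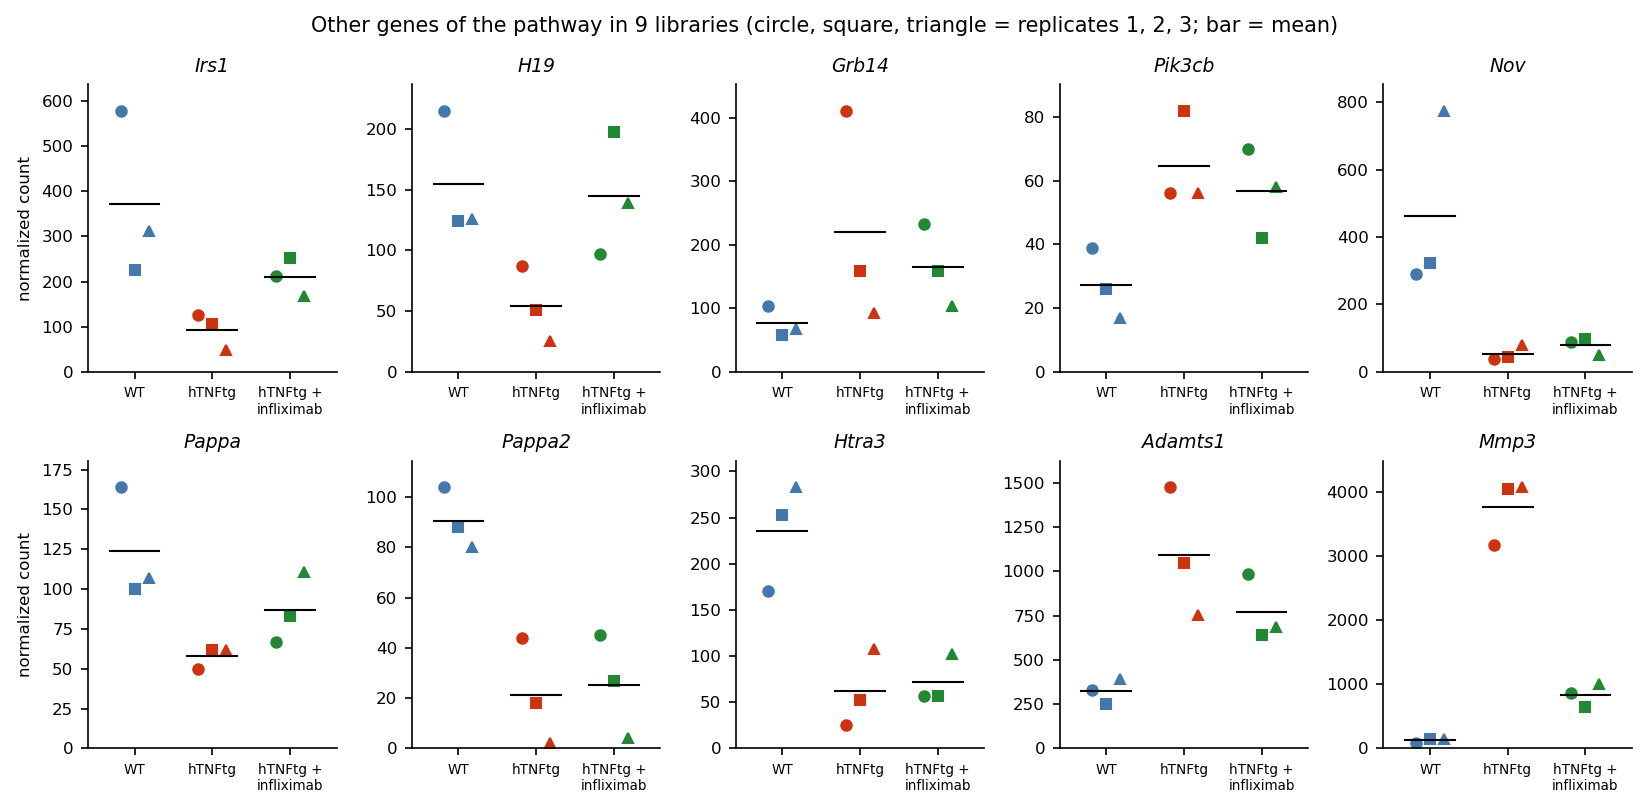
Normalized counts (vertical axis, linear, from 0, with a scale of its own in each panel) of 10 pathway genes called in hTNFtg over WT, by group; circle, square and triangle are replicates 1, 2 and 3, and the bar is the mean of 3. Irs1 and H19 were lowest in untreated hTNFtg, Nov, Pappa2 and Htra3 were low in both hTNFtg groups, and Mmp3 had 3 groups that did not overlap.

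Across the 9 libraries, the genes whose log2 normalized counts were most like those of Igfbp4 were Gas1 (Pearson r = 0.988), Frzb (0.986), which encodes a secreted WNT antagonist, and Ibsp (0.981), a bone sialoprotein. For Igfbp2 they were Zfp784 (0.986), Mterf4 (0.984) and Mgp (0.981), which encodes an inhibitor of mineralization, although Zfp784 and Mterf4 each overlap another gene on the opposite strand. Those of Igf1r were Tpm1 (0.991), Gusb (0.980) and Dnmt3a (0.975), and those of Igf2 were Ephb2 (0.933), Gm9083 (0.923) and Tnrc6c (0.919). For the shared reads of Igfbp7 they were Polr2b (1.00), Gm4691 (0.984) and Ddx21 (0.979). Likeness was ranked over 13600 genes, and all libraries share the difference between the groups, so these r describe the libraries and were not tested.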

How the data were processed

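RNA of cultured ankle SFs was sequenced from transcript 3′ ends (QuantSeq, Ion Proton). The authors mapped reads to mm10 with TopHat2 and Bowtie2 and counted them per gene with GenomicRanges. They normalized the counts and used DESeq for differential expression, through metaseqr. Versions and strand use are not given in the sources used here. The deposited values used here are normalized counts rounded to whole numbers, treated as a score rather than as raw counts. In hTNFtg replicate 1 the deposited signal kept whole steps of 6.23 per read, and 100% of its low values were whole reads within 0.1 read. In both tables the shared hTNFtg columns were equal for all 49548 genes, so the 9 libraries are on 1 scale. Another 24 columns of sample values, 12 on a log2 scale and 12 per gene length, and the authors' means, fold changes and p-values were not used.

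Each comparison used its 6 libraries and every gene that was not 0 throughout them, fitted with limma 3.58.1 (R 4.3.3) on log2(normalized count + 1), which understates changes of low genes, with a mean-variance trend and Benjamini-Hochberg adjustment. The fits were tested on simulated data. As an alternative, edgeR 4.0.16 was run on approximate reads (normalized count divided by the value of 1 read); it had 915 genes with an adjusted p under 0.05 in hTNFtg over WT. Confidence intervals are those of the limma fit. Other alternatives were the pseudocount, a minimum mean, other scalings, array quality weights, robust variance, a replicate block, all 9 libraries in 1 fit, and each library left out. Promoter windows are RefSeq's, from GRCm38.p6, and cover all 10 members. The members and lists were chosen with earlier results of these data known. All members are described, and of each other list the genes past the call rule with a mean of at least 10 (at most 8 per comparison), the gene with the highest mean, and for the members called in hTNFtg over WT the 3 genes with the highest r.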

Additional observations from a re-analysis of the deposited data

How the results depend on the processing

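Over all alternatives of processing, 442 of 479 member values kept their direction and side of the call rule, 12 fell short of it, 4 passed it and 21 changed sign; the cause was not tested. With array quality weights the members called were 3 in hTNFtg over WT, where 12.4% of all genes were called (Igf1r 0.99 and Igfbp7 0.95 fell below the fold threshold) and 0 in treated over untreated hTNFtg, where 7.45% were (Igfbp5 -0.92); the sign changed for Igf2r (0.15) and Igfbp3 (0.044) in the first comparison, for Igfbp6 (0.20) in the second and for Igfbp3 (0.30) in treated over WT. Leaving out 1 library, members called ranged from 4 to 5 in hTNFtg over WT, where 5.02% to 8.91% of all genes were called. For treated over untreated hTNFtg the range was 0 (without hTNFtg replicate 3, 4.12% of all genes) to 2 (without hTNFtg replicate 1, 4.99%). The 6 fits of that comparison called 1.5% to 4.99% of all genes. For treated over WT the range was 3 to 5 members, against 6.19% to 9.11% of all genes. Log2 fold changes that changed sign when 1 library was left out ranged, in hTNFtg over WT, from -0.66 to 0.51 for Igf2r, -0.82 to 0.12 for Igfbp3, -0.39 to 0.080 for Igfbp5 and -0.73 to 0.057 for Igfbp6. In treated over untreated hTNFtg they ranged from -0.54 to 0.071 for Igf1, -0.0098 to 1.72 for Igf2, -0.14 to 1.03 for Igf2r, -0.36 to 0.43 for Igfbp6 and -0.61 to 0.22 for Igfbp7. In treated over WT they ranged from -0.0016 to 0.52 for Igf1 and -0.53 to 0.40 for Igfbp3. Without infliximab replicate 2, Igf1r (1.11) and Igfbp7 (1.01) passed the rule in treated over WT, as did Igf1r without WT replicate 1 (1.08).

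The labels do not state whether same-numbered libraries were paired, and the main fits treated them as unpaired. Same-numbered deviations correlated at -0.14 to 0.35, 0.07 to 0.27 and -0.15 to 0.10 in the 3 comparisons. In the same order, 4, 5 and 2 of 6 libraries correlated best with their own number. These values do not decide the question for treated over untreated hTNFtg, where all same-numbered correlations were positive (0.07, 0.20 and 0.27). With the replicate block, 4, 1 and 4 members were called, against 5.82%, 2.12% and 6.01% of all genes. Igfbp7 in hTNFtg over WT kept its 1.19 but not its call (limma adjusted p = 0.615). Across all alternatives the adjusted p of Igfbp2 in that comparison ranged from 1.12e-06 to 0.511.

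Over all genes, the 1823 called in hTNFtg over WT (6.39%) became 1183 when only genes with a mean of at least 10 were fitted (8.68% of those) and 3540 with array quality weights. In treated over untreated hTNFtg, 693 (2.43%) became 351 with a pseudocount of 5 (1.23%), 314 with a mean of at least 10 (2.31%), 2125 with array quality weights and 1228 by edgeR (4.3%). Leaving out 1 library there gave 418 (without infliximab replicate 2) to 1411 (without hTNFtg replicate 1). The count was 1089 once hTNFtg replicate 2 was dropped and 1115 once hTNFtg replicate 3 was. In treated over WT, 1923 (6.81%) became 1057 with a pseudocount of 5 (3.74%) and 1056 with a mean of at least 10 (7.84%). Igf2 had a mean under 10 in treated over untreated hTNFtg and got no value under that filter.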
